A study of Nannospalax ehrenbergi and Mus musculus with 25 samples.

Results

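The genes studied here were 10 named members of the interleukin 1, interleukin 6 and TNF systems followed through 25 RNA-seq libraries: the ligands Il1a, Il1b, Il6, Il33 and Tnf, the antagonist Il1rn and the decoy receptor Il1r2, the receptors Il1r1 and Il6ra, and the transcription factor gene Nfkb1. The genes were chosen by name, with earlier results of these data known. All 10 were listed in both deposited tables, among 27988 genes in the blind mole rat Spalax (Nannospalax ehrenbergi) and 47593 in the mouse. Il6ra was listed as Il6r in the Spalax table. The Spalax table held a comma in place of a lower-case t in 2387 gene names, and these were read as t.

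The study injected the carcinogen 3-methylcholanthrene (3MCA) once under the skin of the left flank of the neck and compared the tissue of animals that did and did not develop tumors. Spalax received 1 mg and mice received 200 µg. Samples were neck muscle or tumor, taken from the injected side (IS) or the uninjected side (UIS).

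The Spalax control group was muscle of 4 untreated females (animals 1042, 1075, 2095 and 6038), and the Spalax tolerant group was IS muscle of 4 injected animals without a tumor, 2251 and 2261 at 18 months and 2218 and 2375 at 30 months after injection. Tumor-bearing Spalax gave a UIS and an IS library each: granuloma in animals 600 (14 months) and 976 (16 months), and fibrosarcoma in animals 2240 (18 months) and 2230 (30 months). Mouse libraries came from 3 untreated controls (M1, M2 and M5) and from UIS and fibrosarcoma IS of 3 animals, 1019 at 14 weeks, 1023 at 12 weeks and 512 at 11 weeks. Spalax were caught in the wild. The series description gives their ages as about 2 years or as 10 years and more, and the exact age of each animal is not known. The C57BL/6 mice were 3 to 4 months old. Control Spalax were female, 3 of the 4 tolerant animals were male, and 3 of the 4 tumor bearers were female (2230 was male). Sex thus cannot be fully told apart from group in the comparisons with tolerant muscle. All mice were male, so sex also differed in part between the species. The control tissue was from the uninjected side while the tolerant tissue was from the injected side. Each group was small, a granuloma or fibrosarcoma group in Spalax being 2 animals.

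Interleukin 1 alpha and beta are alarm cytokines that signal through the receptor encoded by Il1r1. Il1rn encodes a soluble protein that occupies this receptor without activating it, and Il1r2 encodes a decoy receptor that binds the cytokine and does not signal. Interleukin 6 binds the receptor encoded by Il6ra and signals through a shared partner chain, interleukin 33 is a nuclear alarm cytokine of stromal and barrier cells, and TNF is made largely by macrophages and lymphocytes. Nfkb1 encodes the p105 precursor of the p50 subunit of NF-κB, the factor that IL-1 and TNF receptors activate and that drives transcription of many of these cytokines.

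Values are normalised counts, that is, reads per gene divided by 1 size factor per library. The libraries held 17025447 to 23386729 counted reads in Spalax and 22143060 to 31179183 in mouse, and a value of 10 stood for 7.03 to 16.7 reads in Spalax and 6.95 to 19.3 in mouse. Differences are given as log2(normalised count + 1) with the standard error (SE), a scale that understates the change of low genes. Adjusted p-values are those of limma with Benjamini-Hochberg adjustment over every gene with a value of 10 or more in at least n libraries, n being the size of the smaller group compared, and a gene was called at an adjusted p of at most 0.05. Tumor tissue had lost muscle transcripts. The summed skeletal muscle markers were 114 to 2247 in the 4 Spalax IS tumor libraries and 80.1 to 45370 in the mouse IS libraries, against at least 593500 in every other library of both species. In whole tissue, fewer cells of a type and less RNA per cell cannot be told apart.

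**Figure D1:**
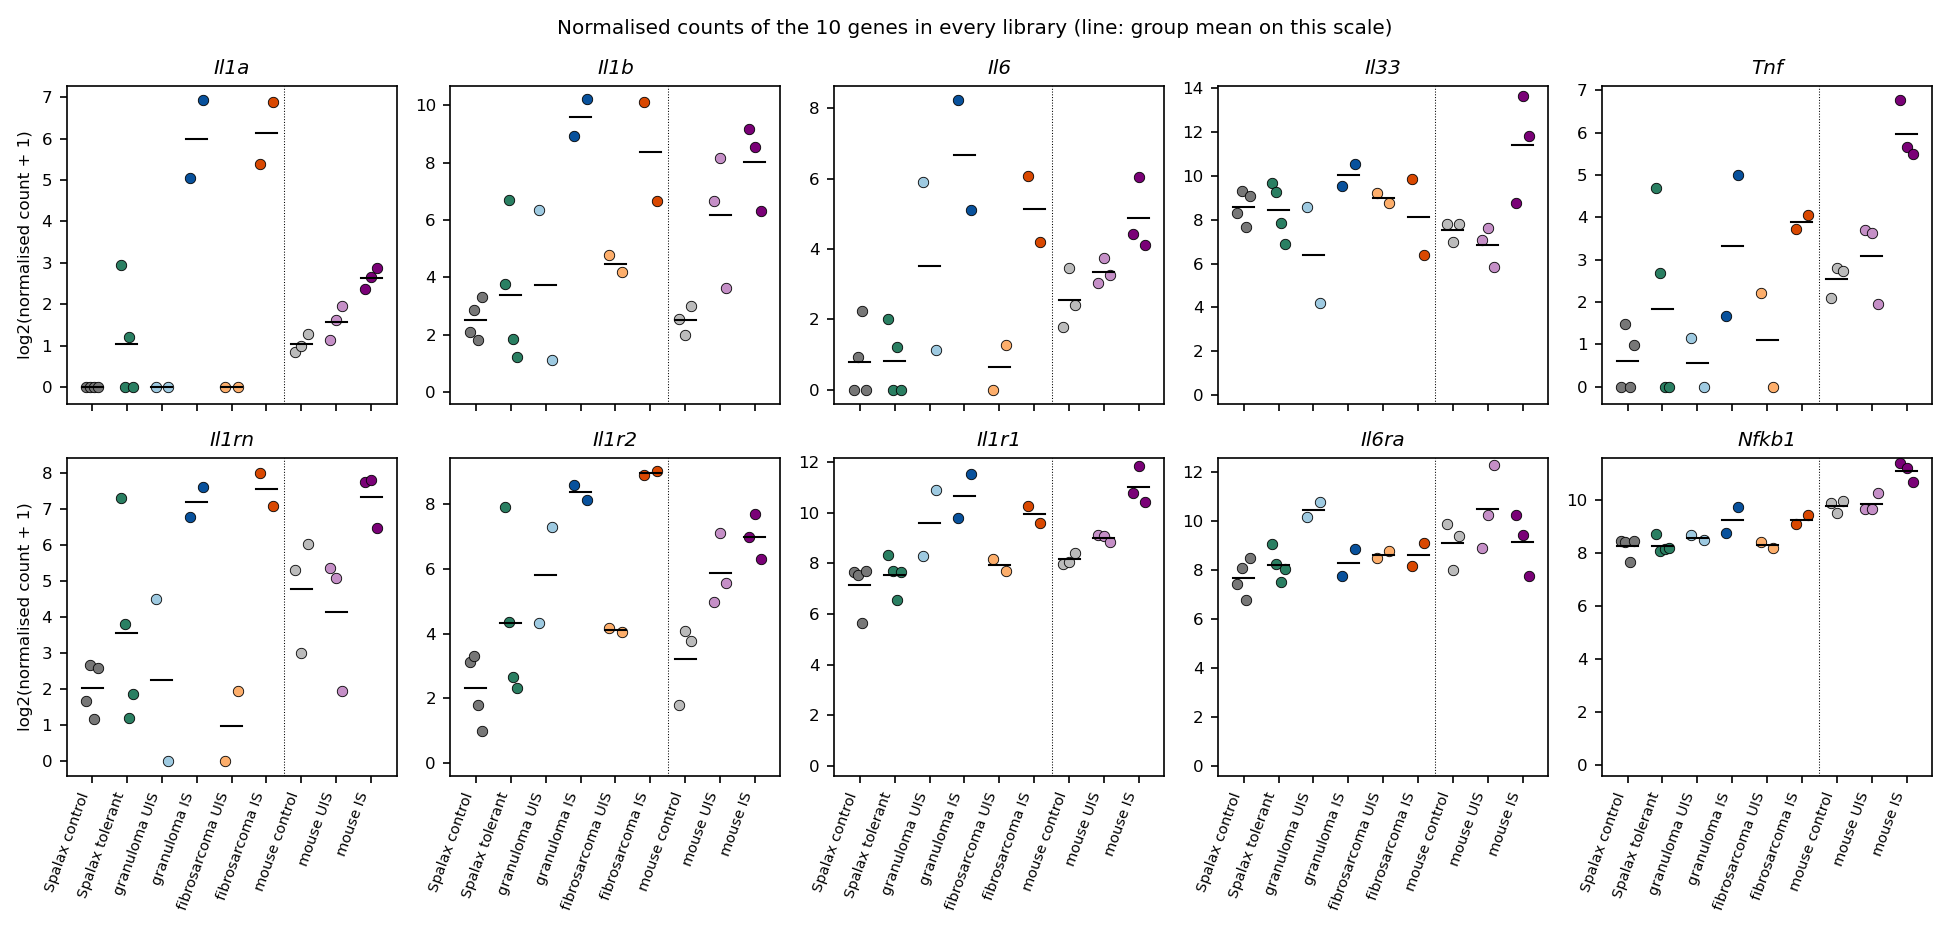
Normalised counts of the 10 genes in every library on the log2(normalised count + 1) scale, 1 panel per gene and 1 point per library, with Spalax groups left and mouse groups right of the dotted line and a bar at each group mean. Il1a was at 0 in the 4 control and the 4 UIS libraries of Spalax and at 31.9 to 120.2 in the 4 Spalax tumors, while Nfkb1 lay between 199.6 and 859 in all Spalax libraries.

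Il1a, encoding the alpha form of interleukin 1, was higher in every Spalax tumor than in any Spalax muscle library. It had no read in any of the 4 control libraries or the 4 UIS libraries. Its normalised count was 6.76 and 1.32 in tolerant animals 2251 and 2218 and 0 in 2261 and 2375. In tumor tissue it was 31.9 and 120.2 in granulomas 600 and 976 and 40.6 and 117 in fibrosarcomas 2240 and 2230. No tumor library overlapped any muscle library. With 3 reads over the whole group as the floor for a group without reads, the 4 tumors were at least 82.8-fold higher than the 4 UIS libraries and at least 98.7-fold higher than the 4 controls. The log2 difference was 5.01 ± 0.80 between tolerant and tumor tissue (adjusted p = 0.00132), 5.98 ± 0.98 between the sides of granuloma bearers (adjusted p = 0.0161) and 6.13 ± 0.71 between the sides of fibrosarcoma bearers (adjusted p = 0.0072). In mouse the gene was near the detection limit, at 0.815 to 1.42 in controls, 1.21 to 2.88 in UIS and 4.13 to 6.32 in IS, which did not overlap, and it was under the filter and not tested.

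Il1b, the ligand most studied in inflammation, was low in the control muscle of Spalax, at 3.31, 6.29, 2.49 and 8.95. Tolerant animals gave 12.8 (2251), 104 (2261), 2.64 (2218) and 1.34 (2375). The tumors gave 488 (granuloma 600), 1188 (granuloma 976), 1099.8 (fibrosarcoma 2240) and 99.5 (fibrosarcoma 2230). Thus 3 of 4 tumors lay above every other Spalax library, and fibrosarcoma 2230 lay within the range of tolerant muscle. On the uninjected side, Il1b was 80.8 in animal 600, 1.18 in animal 976, 26.7 in animal 2240 and 17.1 in animal 2230, so that 3 of the 4 UIS libraries lay above the 4 controls. Il1b rose by 5.58 ± 1.23 on the log2 scale from tolerant to tumor tissue (adjusted p = 0.00629). The log2 difference between the sides was 5.84 ± 1.73 in granuloma bearers (adjusted p = 0.0631) and 3.90 ± 1.23 in fibrosarcoma bearers (adjusted p = 0.0689), and neither passed, although IS was higher than UIS in 4 of 4 animals. With the animal as a block, which pairs the sides of each animal, the fibrosarcoma difference passed (adjusted p = 0.0262) and the granuloma difference did not (adjusted p = 0.0514).

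In mouse, Il1b was 4.89, 3.01 and 7.09 in controls M1, M2 and M5. It was 102, 288 and 11.5 in the UIS muscle of animals 1019, 1023 and 512. Fibrosarcoma tissue of the same animals gave 578, 374 and 79.0. UIS and IS thus overlapped, and the log2 difference of 1.85 ± 1.27 did not pass (adjusted p = 0.272), although IS was higher in 3 of 3 animals. Every UIS library lay above every control, with a log2 difference of 3.64 ± 1.08 (unadjusted p = 0.011, adjusted p = 0.43). DESeq2 on the reads recovered from the values called this difference (adjusted p = 0.000247) and edgeR called no member in this comparison.

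Neutrophil marker transcripts were high in several of the libraries with high Il1b. Of the 8 neutrophil markers listed in Spalax, 5 to 8 had a read in each library, and their summed normalised count was 194 to 295 in controls, 111 to 1231 in tolerant muscle, 325 to 3330 in UIS muscle and 2052 to 8059 in tumors. The tolerant library with the highest Il1b, 2261, had the highest neutrophil sum of its group, 1231. The UIS library with the highest Il1b, of animal 600, had the highest neutrophil sum of the Spalax muscle libraries, 3330. The UIS library of animal 976 was an exception, with a sum of 1108 and the lowest Il1b of all Spalax libraries, 1.18. The fibrosarcoma with the lowest Il1b, 2230, had the lowest sum of the 4 tumors, 2052. The highest sum, 8059, was that of granuloma 600, whose Il1b of 488 was lower than in granuloma 976 and fibrosarcoma 2240. In mouse, UIS library 1023 had the highest neutrophil sum of the 9 mouse libraries, 17690, over 12 markers, and the highest Il1b of its group. The mouse tumors of 1019 and 1023 held more Il1b than that library and lower neutrophil sums, 2376 and 2602. From mouse UIS to IS the median log2 difference of the 9 tested neutrophil markers was −0.83, with 0 called, while Il1b was higher in IS in 3 of 3 animals. Markers at 0 in some muscle libraries were Mpo, Cxcr2 and Mmp8 in Spalax and Ngp, Camp, Mpo, Ltf and Elane in mouse. The part of these cells in the Il1b values was not tested.

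**Figure D2:**
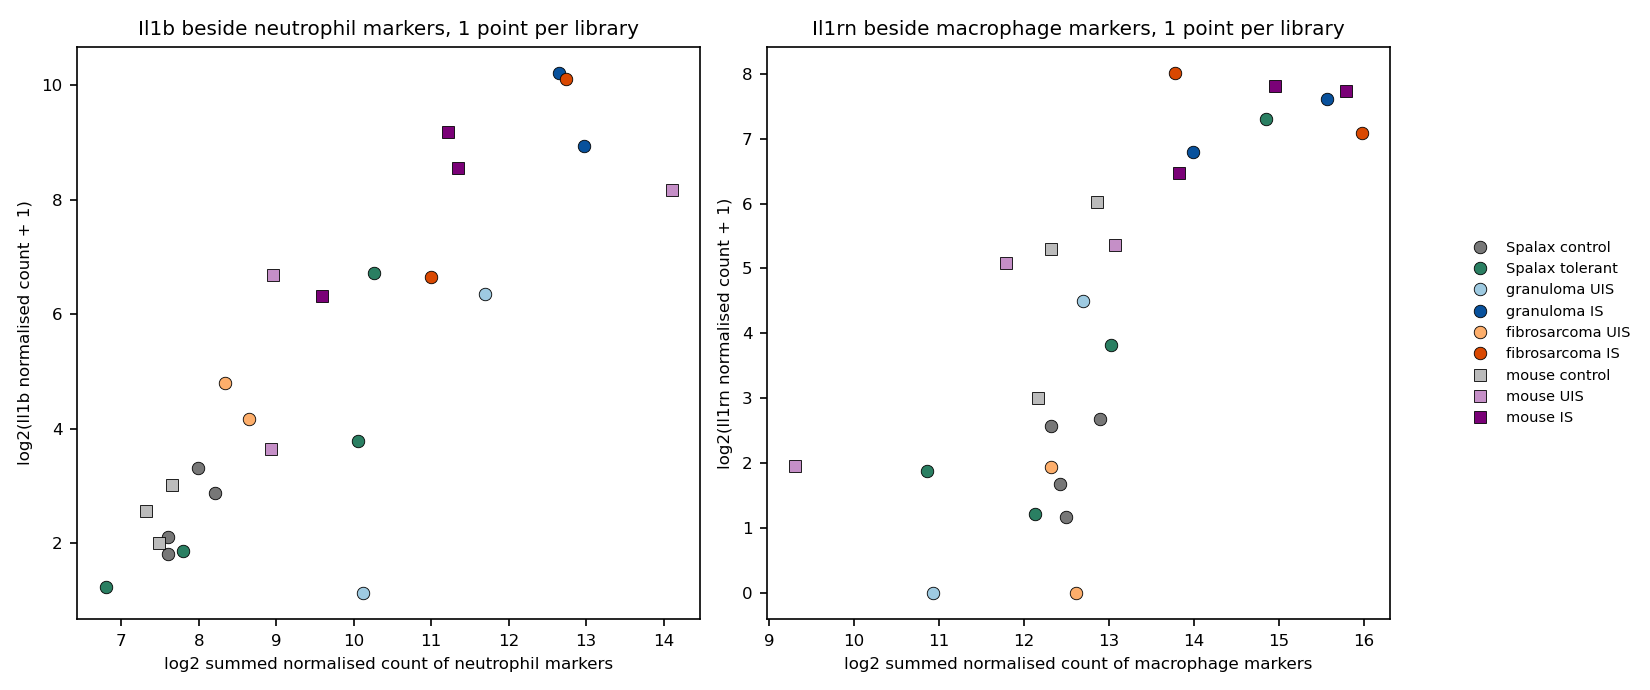
Il1b beside the summed neutrophil markers (left) and Il1rn beside the summed macrophage markers (right), both axes on log2 scales, 1 point per library, circles for Spalax and squares for mouse. The libraries with the highest Il1b, granuloma 976 and fibrosarcoma 2240, had neutrophil sums of 6418 and 6867, and tolerant library 2251, with Il1rn at 158, had the highest macrophage sum of the Spalax muscle libraries at 29500.

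Il6, the ligand of the acute phase response, was almost absent from Spalax muscle. It was 0, 0.899, 3.74 and 0 in controls 1042, 1075, 2095 and 6038 and 3.00, 0, 1.32 and 0 in tolerant animals 2251, 2261, 2218 and 2375. In UIS muscle it was 59.1 (600), 1.18 (976), 0 (2240) and 1.42 (2230). The UIS library of animal 600 stood above all other Spalax muscle libraries. Tumor tissue gave 298 in granuloma 600, 33.2 in granuloma 976, 65.8 in fibrosarcoma 2240 and 17.4 in fibrosarcoma 2230, with no overlap with control or tolerant muscle. Il6 rose by 5.09 ± 0.90 on the log2 scale from tolerant to tumor tissue (adjusted p = 0.0022) and by 4.49 ± 0.90 from UIS to IS in fibrosarcoma bearers (adjusted p = 0.0237). In both comparisons Il6 passed the filter through the tumors alone, so its direction was fixed. The granuloma difference of 3.14 ± 1.87 did not pass (adjusted p = 0.261), with UIS of 600 above IS of 976. Mouse values were 2.44, 10.0 and 4.26 in controls, 7.26, 12.4 and 8.64 in UIS, and 20.7, 65.2 and 16.3 in IS (1019, 1023 and 512). The mouse groups UIS and IS did not overlap, and the log2 difference of 1.52 ± 0.63 did not pass (adjusted p = 0.0926).

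Il33 was present in all libraries of both species, control muscle included. Control Spalax muscle gave 318, 630.1, 200.8 and 533, and tolerant muscle gave 823 (2251), 623 (2261), 230.1 (2218) and 117 (2375). UIS muscle gave 383 (600), 17.7 (976), 600.1 (2240) and 438 (2230). Tumors gave 753 and 1508 in granulomas 600 and 976, 936 in fibrosarcoma 2240 and 82.8 in fibrosarcoma 2230. Il33 was higher on the injected side in 3 of 4 Spalax and lower in animal 2230. No Spalax comparison passed: the log2 difference was 0.67 ± 0.93 between tolerant and tumor tissue (adjusted p = 0.576), 3.65 ± 1.42 in granuloma bearers (adjusted p = 0.118) and −0.87 ± 1.20 in fibrosarcoma bearers (adjusted p = 0.601). In fibrosarcoma bearers the sign rested on single libraries: without the IS library of 2230 the difference was 0.87, and without the IS library of 2240 it was −2.62.

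In mouse the gene was 225, 126 and 226 in controls and 134, 196 and 56.1 in UIS of 1019, 1023 and 512. Fibrosarcoma tissue gave 439, 12717 and 3671. Il33 thus rose in mouse tumors, by 4.57 ± 1.20 on the log2 scale (adjusted p = 0.0221), with animals 1023 and 512 each 6.01 higher in IS and animal 1019 1.70 higher. The call was lost without the IS library of 1023 and without either library of 512. The side difference in Spalax fibrosarcoma less that in mouse was −5.45 ± 1.95 on the log2 scale (unadjusted p = 0.0212), and this interaction of species and side did not pass in limma (adjusted p = 0.151) but was called by DESeq2 (adjusted p = 0.0112).

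Tnf was scarce in Spalax. It was 0, 1.80, 0 and 0.995 in controls and 24.8, 5.47, 0 and 0 in tolerant animals 2251, 2261, 2218 and 2375. UIS muscle gave 1.21 (600), 0 (976), 3.64 (2240) and 0 (2230), and tumors gave 2.18, 30.8, 12.3 and 15.6 in 600, 976, 2240 and 2230. The tolerant library 2251 lay above 3 of the 4 tumors. The log2 difference was 1.77 ± 1.17 between tolerant and tumor tissue (adjusted p = 0.238) and 2.79 ± 0.90 in fibrosarcoma bearers (adjusted p = 0.0726), neither of which passed, and in granuloma bearers Tnf was under the filter. Without tolerant library 2251 the tolerant and tumor difference was 2.71 and passed (adjusted p = 0.0473). Mouse values were 3.26, 6.03 and 5.67 in controls, 12.1, 11.3 and 2.88 in UIS and 108, 49.8 and 44.2 in IS of 1019, 1023 and 512. Mouse IS lay above all other mouse libraries, and Tnf rose by 2.88 ± 0.67 on the log2 scale (adjusted p = 0.0151), a call that was lost without the IS library of 1019 (adjusted p = 0.0529).

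The IL-1 antagonist and the decoy receptor were also high in Spalax tumors. Il1rn was 2.21, 5.39, 1.25 and 4.97 in controls. Tolerant animals gave 158 (2251), 13.1 (2261), 1.32 (2218) and 2.68 (2375), and UIS muscle gave 21.7 (600), 0 (976), 0 (2240) and 2.84 (2230). Tumors gave 109.6, 194, 257 and 134 in 600, 976, 2240 and 2230. All 4 tumors lay above every other Spalax library except tolerant 2251, which exceeded granuloma 600 and fibrosarcoma 2230. Il1rn rose by 6.57 ± 0.86 on the log2 scale from UIS to IS in fibrosarcoma bearers (adjusted p = 0.00919) and by 3.82 ± 1.17 from tolerant to tumor tissue (adjusted p = 0.0256). The second call was lost in 7 of 15 alternatives, among them edgeR and DESeq2. In fibrosarcoma bearers Il1rn passed the filter through the tumors alone, so its direction there was fixed. The granuloma difference of 4.95 ± 1.56 did not pass (adjusted p = 0.0729). In mouse, Il1rn was 38.3, 7.03 and 63.8 in controls, 39.9, 33.0 and 2.88 in UIS and 212, 223 and 87.4 in IS, and it rose by 3.20 ± 0.98 between the sides (adjusted p = 0.0371), a call lost without either library of 1023 or the IS library of 1019.

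Il1r2 was 7.73, 8.99, 2.49 and 0.995 in Spalax controls. Tolerant animals gave 242 (2251), 19.7 (2261), 5.29 (2218) and 4.02 (2375). Tumors gave 388 and 280.4 in granulomas 600 and 976 and 478 and 522 in fibrosarcomas 2240 and 2230. Every tumor lay above every Spalax muscle library. UIS muscle gave 19.3 (600), 155 (976), 17.0 (2240) and 15.6 (2230), each above the highest control. Il1r2 rose by 4.86 ± 0.39 on the log2 scale in fibrosarcoma bearers (adjusted p = 0.00393) and by 4.35 ± 1.08 from tolerant to tumor tissue (adjusted p = 0.0108, lost in edgeR with an adjusted p of 0.0823), while the granuloma difference of 2.55 ± 1.04 did not pass (adjusted p = 0.128). From controls to UIS the log2 difference was 2.65 ± 0.84 (unadjusted p = 0.0103, adjusted p = 0.219).

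Mouse Il1r2 was 2.44, 16.1 and 12.8 in controls, 30.2, 138 and 46.1 in UIS and 126, 206 and 77.9 in IS of 1019, 1023 and 512. The groups UIS and IS overlapped, with a log2 difference of 1.11 ± 0.68 (adjusted p = 0.218), whereas every UIS library lay above every control (2.66 ± 0.81, unadjusted p = 0.0125, adjusted p = 0.439, and adjusted p = 0.0291 in DESeq2). The side difference in Spalax fibrosarcoma exceeded that in mouse by 3.74 ± 0.94 on the log2 scale (unadjusted p = 0.00333). It did not pass in limma (adjusted p = 0.0651) but was called by DESeq2 (adjusted p = 0.00142).

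**Figure D3:**
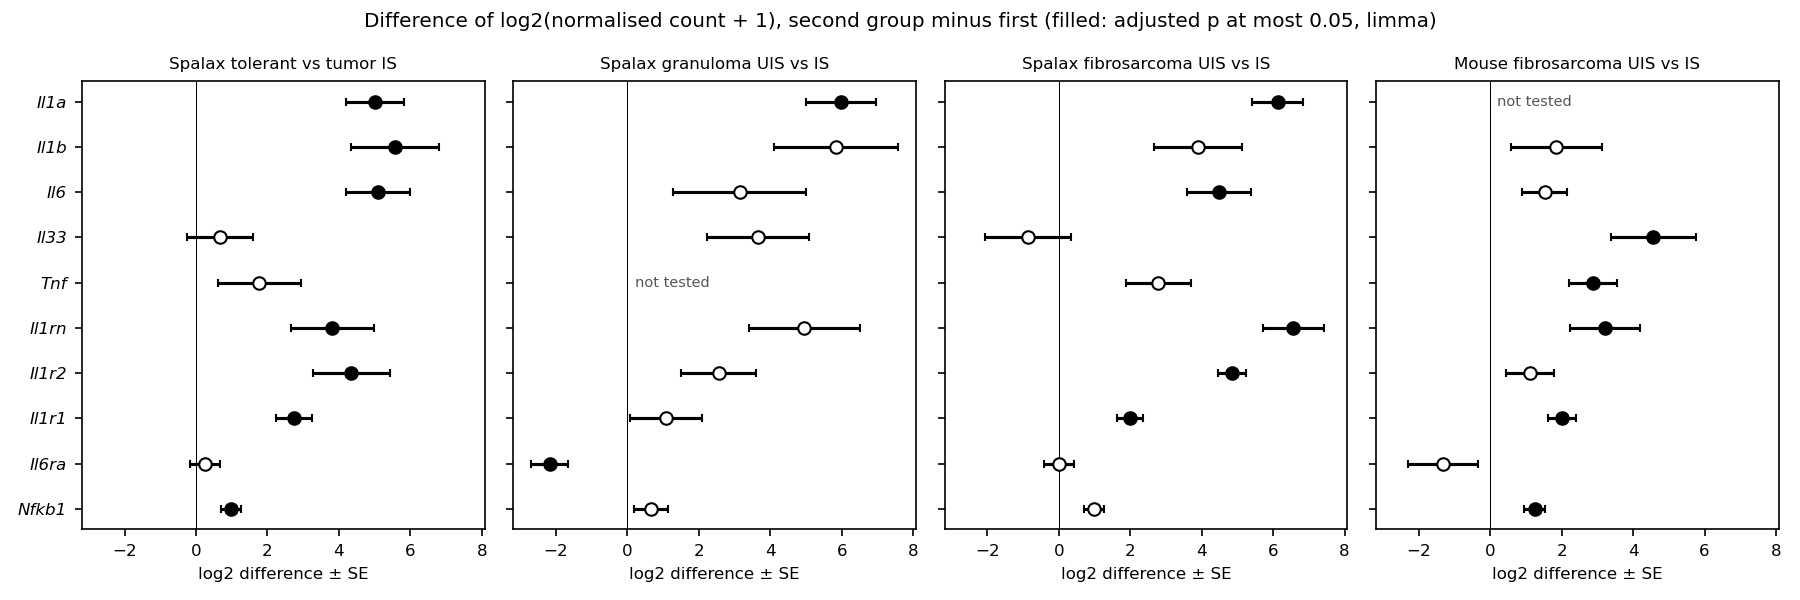
Difference of log2(normalised count + 1) between the second and the first group of each comparison, with bars of 1 SE and filled points at an adjusted p of at most 0.05 in limma. In Spalax Il1a lay between 5.01 and 6.13 and Il1b between 3.90 and 5.84 on the log2 scale, in mouse Il33 lay at 4.57, and Il6ra lay between −2.18 and 0.25 in the 4 panels.

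The signalling receptor Il1r1 was expressed in every library. Control muscle gave 199, 186, 48.6 and 207, and tolerant muscle gave 323 (2251), 205 (2261), 92.6 (2218) and 199.7 (2375). Tumors gave 889.9 and 2977 in granulomas 600 and 976 and 1246 and 764 in fibrosarcomas 2240 and 2230, all above every control and tolerant library. UIS muscle gave 314 (600), 1926 (976), 289 (2240) and 206 (2230), so that the UIS library of 976 was higher than 3 of the 4 tumors. Il1r1 rose by 2.75 ± 0.50 on the log2 scale from tolerant to tumor tissue (adjusted p = 0.0024), a call kept in all 15 alternatives, and by 2.00 ± 0.37 in fibrosarcoma bearers (adjusted p = 0.02), a call lost in 3 of 12 alternatives, among them 1 model over all Spalax libraries (adjusted p = 0.0831). In granuloma bearers the log2 difference was 1.07 ± 1.01 (adjusted p = 0.467), and it was −0.24 without the UIS library of animal 600. From controls to UIS it was 1.64 ± 0.71 (unadjusted p = 0.0455, adjusted p = 0.29).

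In mouse, Il1r1 was 253, 265 and 340.4 in controls, 555, 534 and 459 in UIS and 1745, 3692 and 1373 in IS. The 3 groups did not overlap. The receptor rose by 2.00 ± 0.39 on the log2 scale from UIS to IS (adjusted p = 0.00865), a call kept in all 14 alternatives, and the difference from control to UIS was 0.86 ± 0.25 (unadjusted p = 0.00965, adjusted p = 0.415).

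Il6ra, the ligand-binding receptor chain for IL-6, was called lower in 1 comparison and higher in none. It belongs to a list of genes that the study drew from these same control and UIS libraries, so its level there is not independent evidence of a direction. Control muscle gave 170.1, 271, 109 and 364 and tolerant muscle 534, 301, 181 and 263. UIS muscle gave 1136 (600), 1772 (976), 355 (2240) and 445 (2230), the 2 granuloma bearers standing highest of all Spalax libraries. In the tumors it was 213 (600), 459 (976), 285 (2240) and 548 (2230). Il6ra fell by 2.18 on the log2 scale (SE 0.51) from UIS to IS in granuloma bearers (adjusted p = 0.0361), a call that was lost in 7 of 12 alternatives, including edgeR and scaling by total reads. In fibrosarcoma bearers the log2 difference was −0.01 ± 0.42 (adjusted p = 0.988), and from tolerant to tumor tissue it was 0.25 ± 0.41 (adjusted p = 0.641). The log2 difference from controls to UIS was 1.86 ± 0.55 (unadjusted p = 0.00727, adjusted p = 0.206), called by DESeq2 (adjusted p = 0.0136).

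The difference between the granuloma and fibrosarcoma responses of Il6ra was 2.17 ± 0.71 on the log2 scale (unadjusted p = 0.0175), and it did not pass (adjusted p = 0.946). Mouse Il6ra was 934, 256 and 677 in controls, 482, 1202 and 5046 in UIS and 1229.6, 690.4 and 215 in IS of 1019, 1023 and 512. Animal 1019 was higher in IS, by 1.35 on the log2 scale, and animal 512 was lower in IS by 4.54, so that the mean difference of −1.33 ± 0.98 did not pass (adjusted p = 0.301).

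Nfkb1 was expressed in every library. Control muscle gave 352, 344, 199.6 and 346, tolerant muscle 419.6, 267, 283 and 288, and UIS muscle 405, 359, 337 and 289 in 600, 976, 2240 and 2230. Tumors gave 425, 859, 542 and 689. Each tumor lay above every Spalax muscle library, granuloma 600 only just above tolerant 2251. Nfkb1 rose by 0.97 ± 0.28 on the log2 scale from tolerant to tumor tissue (adjusted p = 0.0189), a call lost without tolerant 2261, tolerant 2218 or granuloma 976. The differences between the sides, 0.66 ± 0.47 in granuloma bearers (adjusted p = 0.338) and 0.97 ± 0.28 in fibrosarcoma bearers (adjusted p = 0.0576), did not pass. In mouse it was 932, 724 and 994 in controls, 799, 798 and 1214 in UIS and 2682, 2346 and 1632 in IS. The gene rose there by 1.24 ± 0.29 (adjusted p = 0.0157), a call lost when the UIS library of 1023, its IS library or the IS library of 1019 was left out.

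Counted over the comparisons, 7 of 10 members were called between tolerant and tumor tissue, all 7 higher in tumors, where 22.4% of all genes tested were called higher and 24% lower. In 5 members the groups did not overlap, the tumors being higher, as in 19.2% of all genes. The median log2 difference of the tested members was 3.29 beside 0.06 over all genes. Il1a and Il6 reached a value of 10 in no tolerant library (at most 6.76 and 3.00). They were tested there only because the tumors were high, so their direction was fixed by the filter. The count and the median draw no support from these members. Between the sides of granuloma bearers, 1 of 9 tested members was called higher and 1 lower, beside 11.7% and 12.6% of all genes. Groups of 2 were separated with IS higher in 6 members and lower in 1, beside 35% and 34.8% of all genes. In fibrosarcoma bearers, 5 of 10 members were called, all higher, beside 17.4% of genes higher and 19% lower, and 8 did not overlap, beside 37.9%. In granuloma bearers Il1a passed the filter through the tumors alone. In fibrosarcoma bearers this held for Il1a, Il6, Tnf and Il1rn, at most 3.64 in UIS, so their direction was likewise fixed. The tolerant and sided comparisons share the tumor libraries. Tolerant and tumor libraries also differed in sequencing index, which cannot be told apart from group, and in the balance of the sexes. In mouse, 5 of 9 tested members were called higher in IS, beside 22.8% of genes higher and 22.3% lower, and 6 did not overlap, beside 31.1%. Il1rn and Il1r1 were the members called in both fibrosarcoma comparisons, Il6 and Il1r2 were called in Spalax and not in mouse, Il33, Tnf and Nfkb1 in mouse and not in Spalax, and Il1a was called in Spalax and not tested in mouse.

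The granuloma and fibrosarcoma counts rested on few libraries. Leaving out 1 library in turn gave 0 to 3 called members in granuloma, 0 to 8 in fibrosarcoma and 2 to 5 in mouse. In fibrosarcoma the count followed the calls over all genes. Both fell without the UIS library of 2240 or of 2230, and both rose without the IS library of either animal. Each such fit leaves 1 library in a group, so the count there is no result about the members. In granuloma it was 0 without the IS library of 600 or either library of 976, and the calls of Il1a and Il6ra there were each lost with any 1 of the 4 libraries left out. Without the UIS library of 600 it was 3, Il1b (8.45), Il33 (5.84) and Il1rn (7.20) being called. Without the UIS library of 976 the log2 differences of these genes were 3.22, 1.47 and 2.69. For Il6 the granuloma difference was 5.54 without the UIS library of 600 and 0.75 without that of 976, and for Il1r2 it was 1.08 and 4.03. In mouse it was 2 without the IS library of 1019 or of 1023 and 3 without the UIS library of 1023.

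Muscle of animals without tumor tissue in the sample gave no limma call. Between control and tolerant Spalax 4 members passed the filter and 0 were called, beside 0% of all genes, with 0 members at an unadjusted p under 0.05 and 0 calls in edgeR and in DESeq2. Between controls and UIS of tumor-bearing Spalax, 0 of 5 tested members were called, beside 0% of all genes, with 3 members at an unadjusted p under 0.05 (Il1r2, Il1r1 and Il6ra), 0 calls in edgeR and 1 in DESeq2, where 3.71% of all genes were called. Il1r2 was the member whose groups did not overlap there, UIS being higher, as in 6.55% of all genes. Between mouse controls and UIS, 0 of 7 tested members were called in limma, beside 0% of all genes. There 3 members had an unadjusted p under 0.05 (Il1b, Il1r2 and Il1r1), the same 3 did not overlap with UIS higher, beside 9.53% of all genes, and edgeR called 0 and DESeq2 2, beside 2.31% of all genes.

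Granuloma and fibrosarcoma tissue were not distinguished by any call. The groups of 2 did not overlap for Il1r2, fibrosarcoma being higher, as in 2435 of all 14562 genes tested. Of 10 members 0 were called between them by limma, beside 0% of all genes, with 0 at an unadjusted p under 0.05 and 0 in edgeR and DESeq2. The interaction of tumor type and side gave 0 calls of 10, beside 0% of all genes, with 1 member at an unadjusted p under 0.05 (Il6ra) and 0 in edgeR and DESeq2. With 2 animals a type, these comparisons leave wide intervals. The interaction of species and side gave 0 calls of 9 members in limma, beside 3.95% of all genes, with 3 at an unadjusted p under 0.05 (Il1r2, Il33 and Il6), 0 in edgeR and 3 in DESeq2 (Il1r2, Il33 and Il1rn), beside 15.6% of all genes. For Il6 the side difference exceeded that of mouse by 2.98 ± 1.27 on the log2 scale (adjusted p = 0.218) and for Il1rn by 3.37 ± 1.54 (adjusted p = 0.247). Calls made in Spalax and not in mouse, or the reverse, are therefore not shown by limma to differ between the species.

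The tolerant group was not uniform. Library 2251 held the highest value of each member except Il1b among the 4 tolerant libraries. In the same library the summed macrophage markers were 29500, against 1852 to 8315 in the other tolerant libraries, the fibroblast markers were 134800 against 7039 to 38340, and the muscle markers were 670100 against at least 1417000. Keratinocyte markers were 4345 against 1076 to 1489, with Krt5, Dsg1a and Ivl at 0 in the other 3 tolerant libraries and detected in 2251. Lymphocyte markers were 1997 against 103 to 410, and mast cell markers 665 against 86.0 to 125. Without it, 7721 genes of the table were called between tolerant and tumor tissue, against 6766 with it. Library 2261 held the highest Il1b of the group. The part of these other transcripts in the members' values was not tested. Control and tolerant libraries also carried a dual sequencing index and tumor-bearing Spalax libraries a single one, so index and group cannot be told apart.

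The balance between signalling and inhibitory genes was read as the ratio of reads within a library, given without a test and not corrected for gene length. For each read of Il1r1 there were 0.436 reads of the decoy Il1r2 in granuloma 600, 0.0942 in granuloma 976, 0.384 in fibrosarcoma 2240 and 0.684 in fibrosarcoma 2230. UIS muscle of the same animals gave 0.0588 to 0.0807. Thus the ratio was higher on the injected side in 4 of 4 Spalax, least so in animal 976, and tolerant library 2251 gave 0.749. In mouse tumors the ratio was 0.0559 to 0.072, and in mouse UIS it was 0.0545 (1019), 0.259 (1023) and 0.1 (512), so that 2 of 3 mice had the lower ratio in the tumor.

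For each read of Il1b there were 0.225 and 0.163 reads of the antagonist Il1rn in granulomas 600 and 976, 0.234 in fibrosarcoma 2240 and 1.35 in fibrosarcoma 2230. Among muscle libraries the ratio was 12.4 in tolerant 2251, 9 in mouse control M5, 0.126 in tolerant 2261 and 0.269 in the UIS library of 600, the latter above its tumor. Mouse tumors gave 0.367, 0.597 and 1.11 in 1019, 1023 and 512, and the UIS libraries of 1019 and 1023 gave 0.393 and 0.115. The side with the higher ratio thus differed between these 2 mice. In most muscle libraries fewer than 10 reads of 1 of these genes were counted and no ratio was formed.

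**Figure D4:**
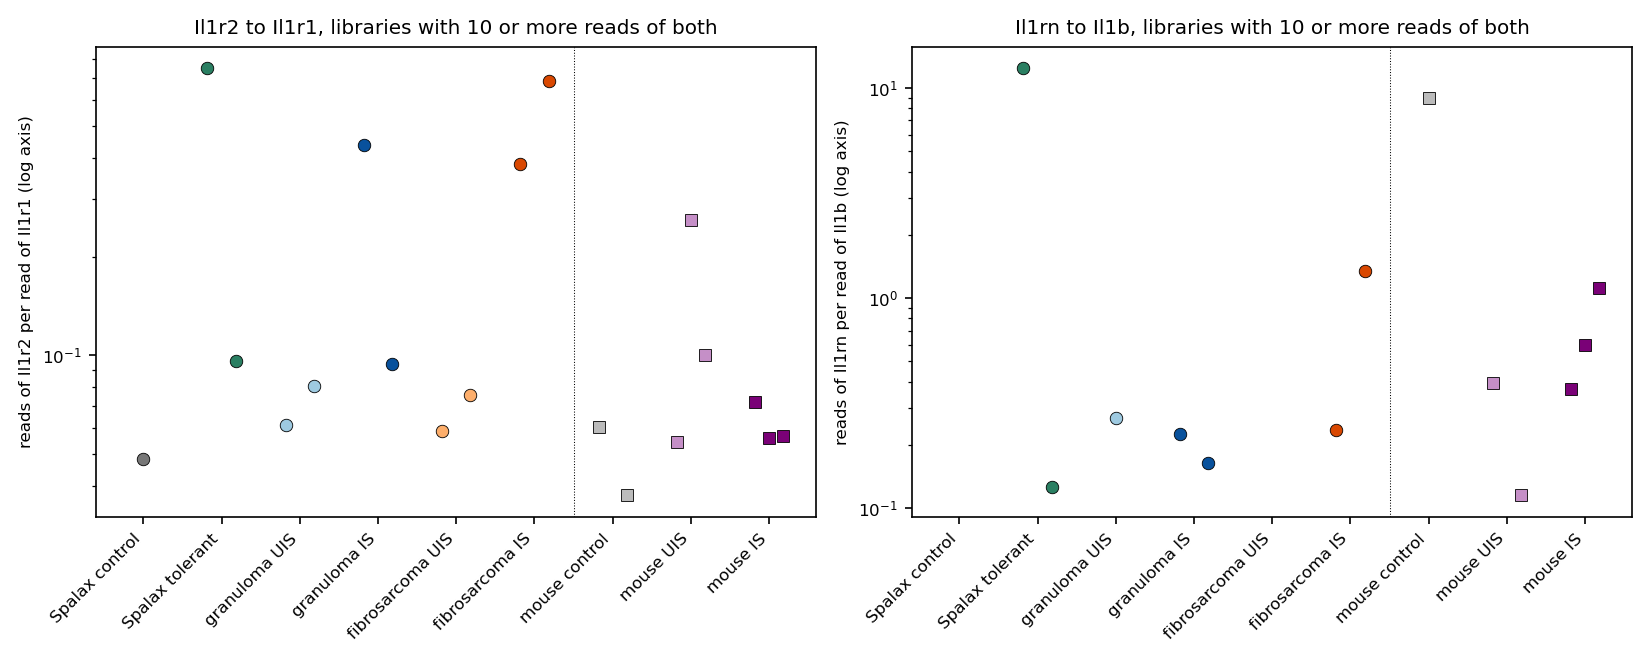
Reads of Il1r2 per read of Il1r1 (left) and of Il1rn per read of Il1b (right) in each library with at least 10 reads of both genes, on log axes, circles for Spalax and squares for mouse. In the left panel 3 of the 4 Spalax tumors held 0.384 to 0.684 reads of Il1r2 per read of Il1r1, and the 3 mouse tumors held 0.0559 to 0.072.

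Levels can be compared between genes only per length, which was possible for mouse with the exons of GENCODE vM21 on build GRCm38. On the normalised count per kilobase of exon, the order in mouse fibrosarcoma was Il33 with 1943, Il1r1 with 357, Nfkb1 with 184, Il1b with 180, Il6ra with 82.4, Il1r2 with 71.6, Tnf with 41, Il1rn with 31.5, Il6 with 14 and Il1a with 2.67. Each pair of neighbours in that order overlapped over the 3 libraries, Il6 and Il1a excepted. In control muscle the order was led by Nfkb1 with 73.2, Il6ra with 72 and Il33 with 66.5, and Il1b had 2.62.

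In the mouse genome (GRCm38) Il1a, at positions 129299610 to 129309972, and Il1b, at 129364570 to 129371139, lie near each other on the minus strand of chromosome 2, and Il1rn lies elsewhere on that chromosome, at 24336853 to 24351494 on the plus strand. The receptors Il1r2 and Il1r1 lie near each other on chromosome 1, at 40074079 to 40125231 and 40225080 to 40317257. Il6ra and Nfkb1 are on chromosome 3, at 89864059 to 89913196 and 135584655 to 135691547. Il6 is on chromosome 5, at 30013114 to 30019981, Tnf on chromosome 17, at 35199381 to 35202007, and Il33 on chromosome 19, at 29925114 to 29960718. Of the exon bases of mouse Il1a 11.2% lie under the antisense gene Gm14023, of Il6ra 2.8% under Gm42809 and of Il1b 1.31% under Il1bos. The strand setting of the read counting was not given, so reads of these pairs cannot be told apart in those stretches.

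The genes whose pattern was most like that of a member over the 16 Spalax libraries were taken by Pearson's r of log2(normalised count + 1) among 16055 genes. For Il1b they were Csf3r, the granulocyte colony-stimulating factor receptor gene (r = 0.947), Irg1 (0.935) and Bnc2 (0.927). For Il1rn they were Vav1 (0.973), Clec5a (0.956) and Cd300lf (0.953), and for Il33 they were LOC103734828 (0.883), Tmbim1 (0.882) and Tm4sf18 (0.876). The libraries fall into muscle and tumor and share animals, so these values describe likeness alone.

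The other genes of these pathways were taken from 8 lists, whose counts stand beside the shares of all genes called: 22.4% higher and 24% lower between tolerant and tumor tissue, 11.7% and 12.6% in granuloma bearers, 17.4% and 19% in fibrosarcoma bearers and 22.8% and 22.3% in mouse. Genes low in muscle passed the filter only where the tumors were high, which tilts the higher counts of such lists upward. In the IL-1 and IL-18 family, 3 of 6 tested genes were called higher in tumor than in tolerant tissue and 0 lower. Between the sides, 2 of 6 were called higher in granuloma bearers, 5 of 6 in fibrosarcoma bearers and 4 of 8 in mouse, with 0 lower in each. Il1rap, the accessory chain that joins Il1r1 for signalling, was 468 to 650.1 in granulomas and 55.4 to 80.8 in the UIS muscle of the same animals, and it rose by 3.03 ± 0.50 on the log2 scale (adjusted p = 0.0168). Il18, a cytokine activated by caspase 1, rose by 2.84 ± 0.48 in granuloma, 3.06 ± 0.56 in Spalax fibrosarcoma and 3.52 ± 0.59 in mouse fibrosarcoma, each relative to UIS. Il18rap, a chain of its receptor, rose by 5.18 ± 0.64 in Spalax fibrosarcoma and by 3.29 ± 0.65 in mouse fibrosarcoma.

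In the IL-6 family, 7 of 14 tested genes were called higher and 3 lower in tumor than in tolerant tissue. Between the sides the counts were 5 higher and 2 lower of 14 in granuloma bearers, 5 and 2 of 14 in fibrosarcoma bearers and 3 and 3 of 14 in mouse. The mouse counts and the lower calls in all 4 comparisons were near the shares of all genes. Osm, encoding oncostatin M, was at most 4.5 in the tolerant libraries and 34.8 to 222 in the tumors, and it rose by 5.31 ± 0.73 on the log2 scale (adjusted p = 0.000612). Il11, encoding interleukin 11, rose by 4.59 ± 1.05 (adjusted p = 0.00745) and Lif, encoding leukemia inhibitory factor, by 4.10 ± 0.93 (adjusted p = 0.00723) in the same comparison. In mouse, Lif rose by 5.55 ± 1.07 (adjusted p = 0.00848), and Cntfr, a receptor gene of the family, fell by 3.77 (adjusted p = 0.0262). In that Spalax comparison Osm and Il6 passed the filter through the tumors alone, so their direction was fixed. Il11 and Lif were also low in tolerant muscle, at most 10.51 and 24.02. That these genes were called in the same direction as Il6 is therefore no result.

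In the TNF system of receptors and adapters, 8 of 13 tested genes were called higher and 1 lower in tumor than in tolerant tissue. Between the sides 6 of 13 were called higher and 0 lower in granuloma bearers, 11 higher and 1 lower of 13 in fibrosarcoma bearers, and 7 higher and 0 lower of 14 in mouse. Tnfaip6, a hyaluronan-binding protein gene induced by TNF and IL-1, was 1243 to 2544 in granulomas and 33.0 to 56.7 in their UIS muscle, rising by 5.33 ± 0.56 on the log2 scale (adjusted p = 0.00747). Traf1, an adapter of TNF receptors, rose by 4.76 ± 1.09 in Spalax fibrosarcoma (adjusted p = 0.0323) and by 3.25 ± 0.71 in mouse (adjusted p = 0.0121). Tnfaip3, encoding the NF-κB inhibitor A20, rose by 2.21 ± 0.39 from tolerant to tumor tissue (adjusted p = 0.0023) and by 2.54 ± 0.38 in mouse (adjusted p = 0.00409). Tnf itself was called in mouse and, in the main fit, in no Spalax comparison. In Spalax fibrosarcoma bearers this depended on the scaling. With scaling by total reads 8 of 10 members were called there, beside 6830 of all 14696 genes tested, 5169 of them higher. The median log2 difference over all genes was then 0.83.

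**Figure D5:**
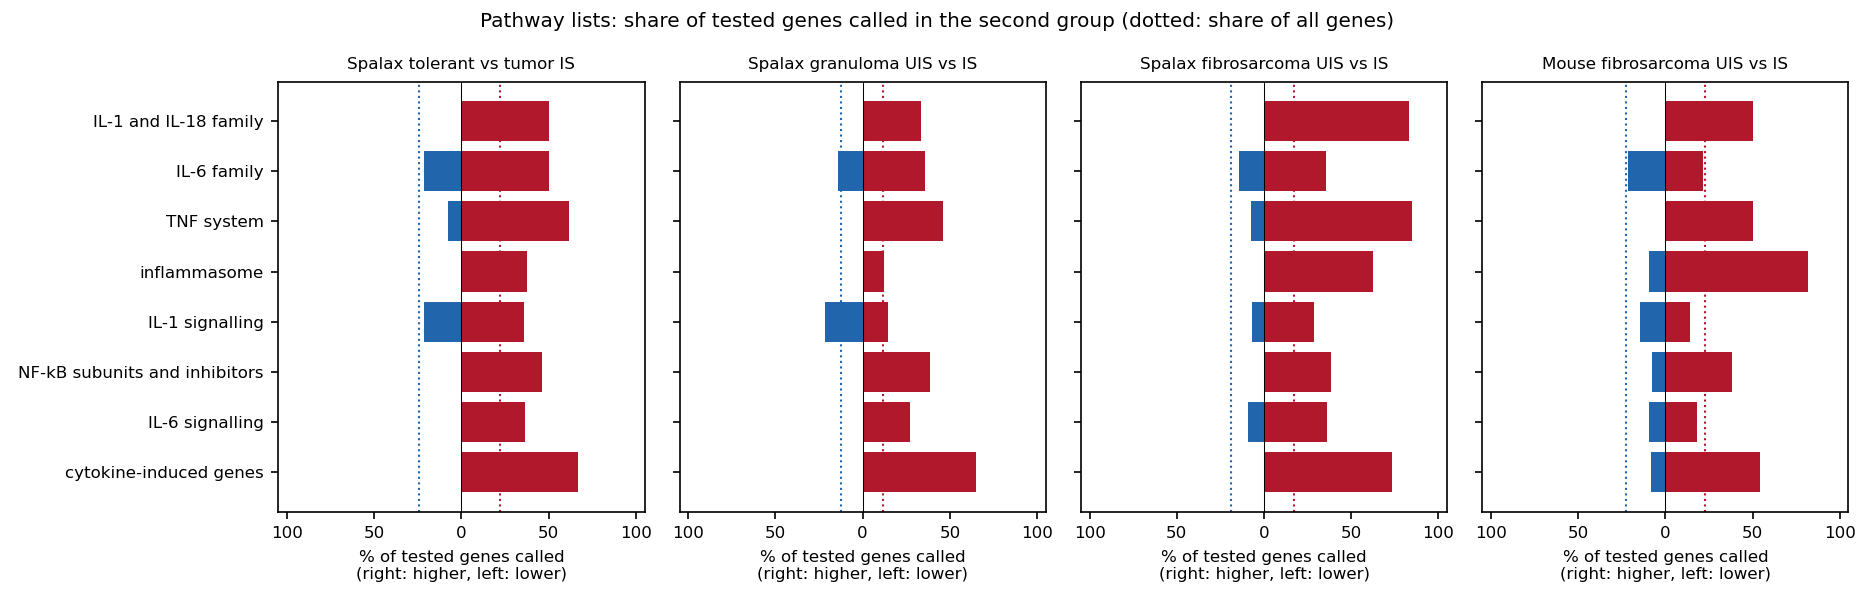
Share of the tested genes of 8 pathway lists called higher (right, red) or lower (left, blue) in the second group of each comparison, in percent, with dotted lines at the share of all genes. Of the cytokine-induced genes 10 of 15 were called higher in tumor than in tolerant tissue, beside 22.4% of all genes. Genes low in muscle were tested only where the tumors were high.

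Inflammasome genes, whose products cut the precursors of IL-1β and IL-18, were called higher in 3 of 8 between tolerant and tumor tissue, 1 of 8 in granuloma bearers, 5 of 8 in fibrosarcoma bearers and 9 of 11 in mouse, where 1 was lower. The granuloma count was near the share of all genes. Casp1, the protease, was 665 to 813 in Spalax fibrosarcomas and 221 to 1029 in granulomas, and it rose by 3.74 ± 0.97 in granuloma bearers (adjusted p = 0.0456) and by 3.30 ± 0.76 from tolerant to tumor tissue (adjusted p = 0.00742). Nlrp3, a sensor, rose by 3.98 ± 0.66 in Spalax fibrosarcoma (adjusted p = 0.015) and by 3.45 ± 1.11 in mouse (adjusted p = 0.0433).

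Genes of IL-1 signalling inside the cell were called in both directions. Between tolerant and tumor tissue 5 of 14 were called higher and 3 lower, in granuloma bearers 2 and 3, in fibrosarcoma bearers 4 and 1, and in mouse 2 and 2. The granuloma count higher was near the share of all genes, and both mouse counts were under it. Myd88, the adapter of the IL-1 receptor, rose by 2.36 ± 0.49, 2.33 ± 0.30 and 1.21 ± 0.35 on the log2 scale in granuloma, Spalax fibrosarcoma and mouse fibrosarcoma relative to UIS. Irak3, an inhibitory kinase of the same complex, rose by 2.65 ± 0.54 in granuloma and 2.32 ± 0.30 in Spalax fibrosarcoma. Mapkapk2, a kinase that stabilises cytokine messengers, was 10450 to 18220 in the UIS muscle of tumor-bearing Spalax and 2255 to 2848 in their tumors. It fell by 2.39 in granuloma, by 2.10 in Spalax fibrosarcoma and by 1.65 in mouse fibrosarcoma on the log2 scale. The adapter and the kinase of this list thus moved in opposite directions in all 3 comparisons of sides.

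Of the NF-κB subunits and inhibitors, 6 of 13 were called higher in tumor than in tolerant tissue and 5 of 13 in each of the 3 comparisons of sides, with 1 lower in mouse and 0 in the others. Bcl3, a nuclear inhibitor family member, rose by 3.01 ± 0.62 between tolerant and tumor tissue (adjusted p = 0.00465), and Relb, a subunit, by 2.09 ± 0.54 (adjusted p = 0.0127). Nfkbiz rose by 2.33 ± 0.51 in granuloma (adjusted p = 0.0308) and by 2.38 ± 0.46 in mouse (adjusted p = 0.00862).

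Of the IL-6 signalling genes, 4 of 11 were called higher and 0 lower in tumor than in tolerant tissue, 3 and 0 in granuloma bearers, 4 and 1 in fibrosarcoma bearers and 2 and 1 in mouse. Both mouse counts were under the shares of all genes. The feedback inhibitor Socs3 was 100.5 to 959 in tolerant muscle and 1141 to 4515 in the tumors, and it rose by 3.26 ± 0.70 on the log2 scale (adjusted p = 0.00538). Socs1, a related inhibitor, rose by 5.06 ± 1.12 in granuloma (adjusted p = 0.032), 3.41 ± 0.59 in Spalax fibrosarcoma (adjusted p = 0.0167) and 3.59 ± 1.02 in mouse (adjusted p = 0.0293). Cebpb, a transcription factor gene of this pathway, fell by 1.84 in mouse (adjusted p = 0.023).

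Genes known to be induced by these cytokines, a list that also holds Il1rn and Tnfaip6, were called higher in 10 of 15 between tolerant and tumor tissue, 11 of 17 in granuloma bearers, 11 of 15 in fibrosarcoma bearers and 13 of 24 in mouse, where 2 were lower. Mmp3, the stromelysin that IL-1 induces in fibroblasts, was 1.21 to 3.53 in UIS muscle of granuloma bearers and 2794 to 6484 in granulomas, and it rose by 10.39 ± 0.71 on the log2 scale (adjusted p = 0.00492). It rose by 8.53 ± 1.65 in Spalax fibrosarcoma (adjusted p = 0.0217). Ptgs2, encoding the inducible cyclooxygenase, rose by 5.61 ± 1.03 in granuloma (adjusted p = 0.0206) and by 6.08 ± 1.47 in mouse (adjusted p = 0.0171). The median log2 difference of the tested genes of this list was 4.48 in granuloma, 3.66 in Spalax fibrosarcoma and 3.46 in mouse, beside −0.01, 0.03 and 0.11 over all genes. Of 26 genes in the list, 17 were tested in granuloma bearers and 11 between Spalax controls and UIS. Genes low in muscle, such as Mmp3, were tested only where the tumors were high. The higher counts and medians of this list are tilted upward by the filter and support no direction. The chemokine and acute phase genes Cxcl1, Cxcl2, Cxcl5, Ccl2, Ccl7 and Saa3 of the list were not found under these symbols in the Spalax table and were not analysed there.

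Markers of other cell types were counted in the same comparisons. The shares of all genes called higher and lower were 22.4% and 24% between tolerant and tumor tissue and 11.7% and 12.6% in granuloma bearers. They were 17.4% and 19% in fibrosarcoma bearers and 22.8% and 22.3% in mouse. Counts near or under these shares, such as 1 of 9 lymphocyte markers in mouse, are no result about a cell type. Of the fibroblast markers, 4 of 8 were called higher in tumor than in tolerant tissue, 6 of 8 in granuloma bearers, 3 of 8 in fibrosarcoma bearers and 4 of 8 in mouse, and their sum was 107900 to 1102000 in Spalax tumors and 7039 to 134800 in Spalax muscle. Of the macrophage markers 3 of 10, 5 of 10, 4 of 10 and 9 of 12 were called higher, with a sum of 14040 to 64430 in Spalax tumors and 1852 to 29500 in Spalax muscle, and none was at 0 in any library. Of the neutrophil markers 7 of 7, 0 of 8, 4 of 7 and 0 of 9 were called higher. Of the lymphocyte markers 4 of 8, 0 of 7, 7 of 8 and 1 of 9 were called higher and 1 lower, in fibrosarcoma bearers. Of the mast cell markers 0 of 3, 0 of 2, 1 of 2 and 0 of 7 were called higher and 1 lower, between tolerant and tumor tissue, of the keratinocyte markers 0 of 7, 0 of 6, 3 of 7 and 0 of 4 (lower in 2, 1, 2 and 2), and of the endothelial and adipocyte markers 0 in each comparison. Endothelial markers were called lower in 7, 0, 5 and 1 of 8, and adipocyte markers in 5 of 7, 3 of 5, 5 of 7 and 7 of 7. The part of these cells in the members' values was not tested.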

How the data were processed

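RNA from muscle or tumor was sequenced as single-end reads from strand-specific libraries (TruSeq Stranded). The authors trimmed with Trimmomatic, mapped with TopHat (version 1.4.1 in the submitters' processing notes, TopHat2 in the study's methods) to the Spalax genome or mouse GRCm38, and counted genes with htseq-count. The deposited values are a signal, read counts divided by 1 size factor per library. In each of 25 libraries 100.0% of values were whole multiples of 1 read (tolerance 0.01 reads), so whole reads were recovered, and a value of 10 stood for 6.95 to 19.3 reads.

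Groups came from the sample labels, and replicates are separate animals. limma 3.58.1 (R 4.3.3) was fitted to log2(value + 1) over the libraries of each comparison, keeping genes with a value of 10 or more in at least n libraries, n being the size of the smaller group, with Benjamini-Hochberg adjustment over all genes and a threshold of 0.05. The study's own calls joined edgeR and DESeq2. Alternatives were edgeR 4.0.16 and DESeq2 1.42.0 on recovered read counts, other scalings, a pseudocount of 0.1, no filter, 1 model over all libraries, and each library left out. Sides come from the same animal by label, and the check of pairing gave a correlation of deviations of 0.009 in granuloma, −0.002 in fibrosarcoma and 0.117 in mouse. The tests were tried on simulated data. The members and lists were chosen with earlier results of these data known. Genes named from the lists were the up to 3 called genes with the largest change per list and comparison. The sequencing name of the granuloma UIS library of animal 976 carries the number 979, and the label was followed. No sequences are printed.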

Additional observations from a re-analysis of the deposited data

Results flagged for a closer look

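In 3 cases a library stood far from the other 3 of its group by Dixon's ratio (above the 95% critical value for 4 samples, on the log2(value + 1) scale). Il1r1 in Spalax control library 2095 was 48.6, the other controls being 186 to 207. Nfkb1 in the same library was 199.6, the others being 344 to 352. Nfkb1 in tolerant library 2251 was 419.6, the others being 267 to 288. Of 19 groups examined, chance flags about 1 in 20. The cause was not tested.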

How the results depend on the processing

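The count of called members moved by more than 1.5 times in some settings. In granuloma bearers it was 2, beside 3581 of all 14735 genes called. It was 1 with no filter (2692 of 20775 genes), 1 in edgeR (2978 of 14735), 4 in DESeq2 (5383 of 14735) and 5 in 1 model over all Spalax libraries (6314 of 14735). In fibrosarcoma bearers it was 5 (5339 of 14696 genes), against 8 with scaling by total reads (6830 of 14696). In both the count also moved when a library was left out, which leaves 1 library in a group. In mouse it was 5, and 2 to 5 with a library left out, the lowest without the IS library of 1019 or of 1023. From controls to UIS it was 0, against 1 in DESeq2 in Spalax and 2 in mouse. The interaction of species and side gave 0, against 1 with no filter, 3 in DESeq2 and 0 to 1 with a library left out. With the replicate block for the animal, the paired counts were 2 in granuloma, 6 in fibrosarcoma (Il1b added), 5 in mouse and 0 in both interactions, and the block changed no other call. Il6ra between the sides of fibrosarcoma bearers, −0.01, changed sign in DESeq2 (0.01), edgeR (0.05) and with total reads (0.80), and leaving out a library gave −0.48 to 0.46. Leaving out a library gave −0.24 to 2.37 for Il1r1 in granuloma bearers and −2.62 to 0.87 for Il33 in fibrosarcoma bearers. Where a group of 2 was left with 1 library, that library was assumed to vary like the other group. Of 34 log2 differences not printed, 24 changed sign in at least 1 alternative. Of 90 group means, 19 moved by over 1 SD when CPM replaced the deposited scaling. The cause was not tested. Depth limits Il1a, Il6 and Tnf in muscle, where a library held few reads.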
